A study of Homo sapiens with 6 samples.

Results

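Cholesterol synthesis, uptake and efflux genes were examined in KGN, an established human cell line that came from a granulosa cell tumour of the ovary. The set holds 35 genes, found by symbol in the deposited table of 16626 genes, with no gene of the set missing from it. They were ordered by role into 18 synthesis enzymes, 5 sterol-sensing genes, 9 genes of uptake, storage and transport, and 3 efflux genes. RNA from 6 libraries was sequenced, 3 labelled OE-SOX3 (KGN cells overexpressing the transcription factor gene SOX3) and 3 labelled OE-NC (KGN cells whose genotype label is WT). Both groups are the same tumour-derived line, and the sources used here do not give the promoter or vector behind the overexpression, the number of clones or the time of harvest. They also leave out whether replicates were grown as separate cultures, so a p-value measures only the spread between these libraries, possibly a technical one. The values are FPKM, reads scaled to gene length and library total.

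Cholesterol is built from acetyl-CoA, first through the mevalonate pathway to farnesyl diphosphate and then, from squalene onward, through the sterol pathway. When sterol in the endoplasmic reticulum is low, SCAP carries the SREBP transcription factors to the Golgi for cleavage and they switch on synthesis and uptake genes. INSIG proteins hold SCAP back when sterol is plentiful. Granulosa cells use cholesterol for steroid hormones and draw it from lipoproteins, from stored esters and from their own synthesis, while oxysterol-activated LXR receptors induce the efflux pump gene ABCA1.

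The fitted library totals were 18039929 to 20335307 reads. SOX3 itself had 14.35, 13.7 and 14.36 FPKM in OE-SOX3 libraries, against 0.07561, 0.1415 and 0.02542 FPKM in OE-NC libraries, so its level goes with the labels. OE-NC replicate 1 stood apart from its group. Its correlation with either of the other OE-NC libraries was 0.986 over tested genes, and theirs with each other was 0.998. Its difference from them ran against gene length (Spearman -0.508 over 11131 genes). Results that rest on it are therefore given with and without it. OE-SOX3 replicate 1 also ran against gene length, though less (Spearman -0.215), and stays in the fits without OE-NC replicate 1. Of 11 granulosa cell markers in the table, 7 passed the filter on low values and 5 of these were called higher in OE-SOX3. INHA, INHBA, GATA4 and FST, 4 of those 5, passed the filter only through OE-SOX3, where they were high, so the count shows no direction for the list. The other called marker, FOXL2, averaged 4.85 ± 0.215 FPKM in OE-SOX3 and 3.23 ± 0.515 FPKM in OE-NC (SD, n = 3 each; log2 fold change 0.48, limma adjusted p = 0.00328). NR5A1 stood at 15.4 ± 0.926 FPKM in OE-SOX3 and 15.7 ± 1.43 FPKM in OE-NC (SD, n = 3 each), and did not pass. The aromatase gene CYP19A1 averaged under 1 FPKM in both groups and was not tested. It had 0.9265, 0.8161 and 1.033 FPKM in OE-SOX3 libraries, against 0.3359, 0.2096 and 0.2729 FPKM in OE-NC libraries, with no overlap. AMHR2, also not tested, was listed at 0 in every OE-SOX3 library and averaged 0.245 FPKM in OE-NC, which rests on 3, 7 and 4 reads. The summed level of 9 theca and stromal cell markers ranged from 3680 to 3920 FPKM in OE-SOX3 and from 996 to 1040 FPKM in OE-NC, with 7 of the 9 higher in OE-SOX3. Epithelial markers summed to 88.5 to 97.8 FPKM in OE-SOX3 and 269 to 320 FPKM in OE-NC (1 of 7 higher, 3 lower), and leukocyte markers to 57.2 to 59.1 FPKM in OE-SOX3 and 79.7 to 85.1 FPKM in OE-NC (2 of 8 lower). The theca marker CYP17A1 was at or near 0 in both groups, at 0 in every OE-SOX3 library and at 0.1501, 0 and 0.03029 FPKM in OE-NC libraries. The part of all these markers in the results was not tested. In whole-culture RNA, fewer cells of a type and less RNA per cell cannot be told apart.

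Of the 35 genes, 34 reached a mean of 1 FPKM in a group and were tested with all other genes, and ABCG1 did not. ABCA1 passed only through OE-SOX3 and APOE only through OE-NC. In the limma fit on log2(FPKM + 1), 11 of the tested genes were higher in OE-SOX3, 11 were lower and 12 did not pass an adjusted p of 0.05. Here rose and fell are used of genes past that threshold. Over all 11131 tested genes 69.1% passed, 32.9% higher and 36.1% lower, so a share of called genes near those values is no result about the set. Scaling every library to the same sum of FPKM shifted the median log2 fold change of all tested genes by 0.16, to 0.12 against -0.03. It moved the share of higher genes among the called to 59.2%, against 47.7%. The groups did not overlap for 26 of the 35 genes, ABCG1 among them though not tested, against 76.0% of all tested genes.

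**Figure D1:**
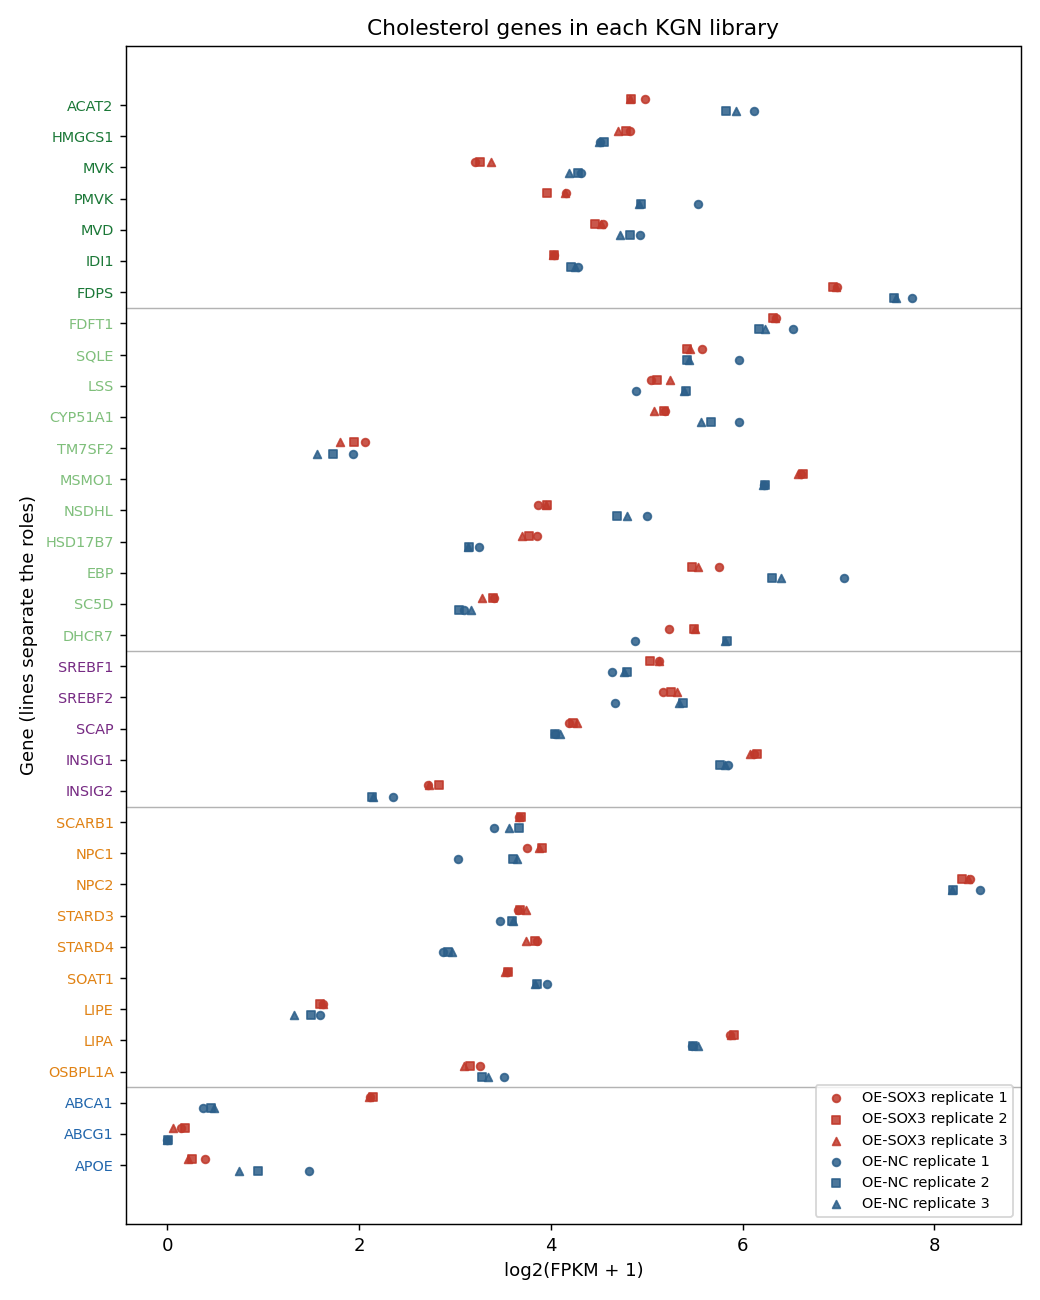
Level of each cholesterol gene as log2(FPKM + 1) in every library, with OE-SOX3 points above OE-NC points in each row and marker shapes for replicates 1 to 3. NPC2 had the highest levels and ABCG1 the lowest, and the OE-SOX3 points of ACAT2, MVK, PMVK and FDPS sit left of all OE-NC points, whereas those of ABCA1 and STARD4 sit right of them.

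Genes of the mevalonate arm were mostly lower in OE-SOX3. Of 7, 6 fell and 1 rose, with a median log2 fold change of -0.68, against -0.03 for all tested genes. Of all tested genes 36.1% were called lower and 32.9% higher. ACAT2, the thiolase that joins acetyl-CoA units, had 30.64, 27.48 and 27.46 FPKM in OE-SOX3 libraries, against 68.28, 55.76 and 60.05 FPKM in OE-NC libraries. Every OE-SOX3 library lay below every OE-NC library, at 0.465 of the OE-NC mean (log2 fold change -1.08, SE 0.09, limma adjusted p = 5.03e-05). In GENCODE annotation 52.3% of ACAT2 exon bases lie inside exons of other genes, so its value may include their reads. MVK, mevalonate kinase, had 8.232, 8.571 and 9.401 FPKM in OE-SOX3 libraries, against 18.85, 18.46 and 17.2 FPKM in OE-NC libraries. The spread within each group was small beside the gap (log2 fold change -0.98, SE 0.07, limma adjusted p = 2.67e-05).

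PMVK, the next kinase of the arm, had 16.86, 14.52 and 16.7 FPKM in OE-SOX3 libraries, against 45.21, 29.75 and 29.29 FPKM in OE-NC libraries. OE-NC replicate 1 was the highest of its group, and PMVK still fell without it (log2 fold change -0.85 in place of -1.04, limma adjusted p = 7.06e-07). FDPS, which makes farnesyl diphosphate, had 126.0, 122.0 and 125.1 FPKM in OE-SOX3 libraries, against 216.2, 190.6 and 192.4 FPKM in OE-NC libraries. It had the highest level of the arm in both groups and fell by 0.68 on the log2 scale (SE 0.07, limma adjusted p = 0.000135). FDPS has near-identical pseudogenes that could share its reads, so its value is uncertain.

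The other 3 genes of the arm moved less. MVD, mevalonate diphosphate decarboxylase, averaged 21.8 ± 0.629 FPKM in OE-SOX3 and 27.4 ± 2.13 FPKM in OE-NC (SD, n = 3 each) and fell by 0.31 on the log2 scale (limma adjusted p = 0.00663). IDI1, the isopentenyl diphosphate isomerase, averaged 15.4 ± 0.073 FPKM in OE-SOX3 and 18 ± 0.538 FPKM in OE-NC and fell by 0.22 (limma adjusted p = 0.0112). HMGCS1, the cytosolic synthase that makes the HMG-CoA precursor of mevalonate, was the 1 gene that rose, with 27.4, 26.55 and 24.94 FPKM in OE-SOX3 libraries, against 21.83, 22.59 and 21.73 FPKM in OE-NC libraries (log2 fold change 0.24, SE 0.06, limma adjusted p = 0.00993). Its groups did not overlap, though the difference was small. After a length trend was removed from each library HMGCS1 did not pass (adjusted p = 0.05, above the threshold before rounding), nor did MVD (adjusted p = 0.0885). IDI1 did not pass with libraries scaled to the same sum (adjusted p = 0.283).

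The sterol arm split. Of 11 enzymes, 3 rose, 3 fell and 5 missed the threshold, when 69.1% of all tested genes passed, 32.9% higher and 36.1% lower. The median log2 fold change was -0.10, but 0.05 without OE-NC replicate 1 (5 higher, 5 lower) and 0.04 with a length trend removed from each library, so it has no stable sign. Those that fell were NSDHL, EBP and CYP51A1. NSDHL, a sterol dehydrogenase of the demethylation steps, had 13.58, 14.55 and 14.48 FPKM in OE-SOX3 libraries, against 30.97, 24.91 and 26.82 FPKM in OE-NC libraries. It stood at 0.515 of the OE-NC mean with no overlap (log2 fold change -0.91, SE 0.09, limma adjusted p = 9.97e-05). EBP, the sterol isomerase, had 52.99, 43.55 and 45.43 FPKM in OE-SOX3 libraries, against 132.2, 77.89 and 83.39 FPKM in OE-NC libraries. OE-NC replicate 1 was far above the rest of its group, and without it the log2 fold change of EBP was -0.76 in place of -1.0 (limma adjusted p = 4.87e-06).

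CYP51A1, the lanosterol demethylase, averaged 34.6 ± 1.49 FPKM in OE-SOX3 and 52.6 ± 7.91 FPKM in OE-NC (SD, n = 3 each) and fell by 0.58 on the log2 scale (limma adjusted p = 0.00228). An annotated transcript on the same strand and other genes cover 83.2% of CYP51A1 exon bases, so its level is uncertain. MSMO1, the methylsterol monooxygenase that acts between CYP51A1 and NSDHL, went the other way. It had 96.46, 98.13 and 94.6 FPKM in OE-SOX3 libraries, against 73.93, 74.23 and 72.92 FPKM in OE-NC libraries (log2 fold change 0.38, SE 0.05, limma adjusted p = 0.00064). All 3 OE-SOX3 libraries were above all 3 OE-NC libraries, with replicates close together in both groups.

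HSD17B7, the ketosteroid reductase that completes demethylation and also reduces estrone, had 13.46, 12.69 and 11.98 FPKM in OE-SOX3 libraries, against 8.509, 7.85 and 7.796 FPKM in OE-NC libraries. It rose by 0.60 on the log2 scale (SE 0.07, limma adjusted p = 0.000226), and a near-identical pseudogene could share its reads. SC5D, the sterol desaturase, averaged 9.3 ± 0.514 FPKM in OE-SOX3 and 7.61 ± 0.381 FPKM in OE-NC (SD, n = 3 each) and rose by 0.26 (limma adjusted p = 0.0124). The call on SC5D was lost without OE-SOX3 replicate 1 (adjusted p = 0.0544), without OE-SOX3 replicate 2 (adjusted p = 0.0547) and after removal of the length trend (adjusted p = 0.097).

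In 4 of the 5 enzymes that did not pass, OE-NC replicate 1 lay far from the other OE-NC libraries, above them in SQLE and FDFT1 and below them in LSS and DHCR7. SQLE, squalene epoxidase, had 46.78, 41.92 and 42.8 FPKM in OE-SOX3 libraries, against 61.5, 41.91 and 42.38 FPKM in OE-NC libraries. The groups overlapped, and without OE-NC replicate 1 the log2 fold change was 0.05 in place of -0.12 (limma adjusted p = 0.338). DHCR7, which makes the final reduction to cholesterol, had 36.49, 43.98 and 44.53 FPKM in OE-SOX3 libraries, against 28.42, 56.19 and 55.4 FPKM in OE-NC libraries. Replicate 1 was the lowest of its group in both, and without OE-NC replicate 1 DHCR7 was lower in OE-SOX3 (log2 fold change -0.42 in place of -0.10, limma adjusted p = 0.000476).

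FDFT1, squalene synthase, averaged 79.8 ± 1.05 FPKM in OE-SOX3 and 78.8 ± 10.8 FPKM in OE-NC, and LSS, lanosterol synthase, averaged 34.1 ± 2.46 FPKM in OE-SOX3 and 37.0 ± 7.29 FPKM in OE-NC (SD, n = 3 each). Without OE-NC replicate 1 FDFT1 passed as higher in OE-SOX3 (log2 fold change 0.14, limma adjusted p = 0.0064) and LSS as lower (log2 fold change -0.27, limma adjusted p = 0.00137). TM7SF2, a sterol reductase and the lowest enzyme of the arm, averaged 2.84 ± 0.341 FPKM in OE-SOX3 and 2.36 ± 0.444 FPKM in OE-NC. It missed the threshold (limma adjusted p = 0.155), but was called higher in a fit blocked on replicate number (adjusted p = 0.0385), and in the fit that leaves out OE-NC replicate 1 (adjusted p = 0.00849). Without that library 6 of the 18 synthesis enzymes were higher and 11 lower, when 81.5% of all tested genes passed, 38.4% higher and 43.1% lower.

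**Figure D2:**
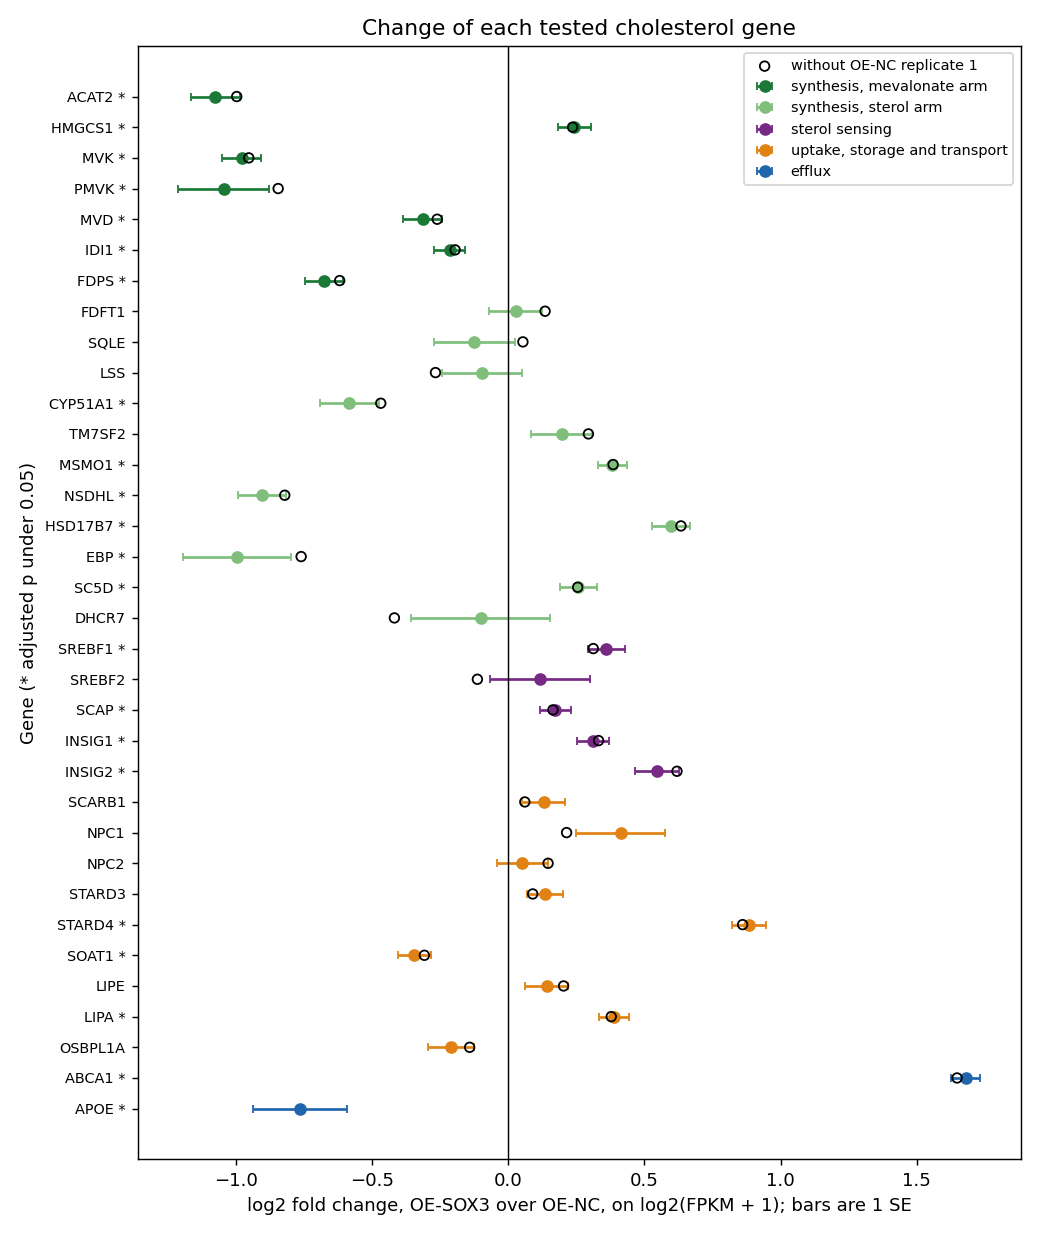
log2 fold change (OE-SOX3 over OE-NC, on log2(FPKM + 1)) of the 34 tested genes, coloured by role, with bars of 1 SE, an asterisk for an adjusted p under 0.05 and open circles for the fit without OE-NC replicate 1. ABCA1 lies farthest right at 1.68 and ACAT2 farthest left at -1.08, and for SQLE and SREBF2 the open circle falls on the other side of 0.

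Promoter sequences were read for the 30 genes with an entry, from 250 bases before to 50 after the RefSeq start (GRCh38.p14). An inverted CCAAT box (ATTGG, read on both strands), the letters bound by NF-Y, a partner of SREBP at sterol genes, occurred in 19 of the 30 and in 35.7% of 27305 RefSeq promoters of that length. It was present in 6 of 11 promoters of genes that rose, 7 of 10 of genes that fell and 6 of 9 of genes that did not pass. MVK and NSDHL, which fell, and MSMO1, which rose, are shown because they held the most boxes (5, 5 and 4). Capitals mark ATTGG or its complement CCAAT, and in NSDHL a pair of matches on opposite strands overlap.
MVK (chr12:109573544-109573843, plus strand): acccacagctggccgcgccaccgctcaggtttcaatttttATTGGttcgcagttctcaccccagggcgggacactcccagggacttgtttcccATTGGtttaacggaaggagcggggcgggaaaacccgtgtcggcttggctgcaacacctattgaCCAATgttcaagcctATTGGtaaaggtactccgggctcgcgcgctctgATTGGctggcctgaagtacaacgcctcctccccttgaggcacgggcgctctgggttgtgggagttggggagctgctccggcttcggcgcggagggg
NSDHL (chrX:152830813-152831112, plus strand): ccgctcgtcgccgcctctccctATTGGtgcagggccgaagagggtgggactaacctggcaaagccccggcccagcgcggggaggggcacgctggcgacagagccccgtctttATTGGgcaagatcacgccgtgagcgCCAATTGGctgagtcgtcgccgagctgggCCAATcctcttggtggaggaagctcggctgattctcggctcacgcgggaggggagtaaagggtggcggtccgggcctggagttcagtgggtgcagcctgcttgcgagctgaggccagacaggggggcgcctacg
MSMO1 (chr4:165327419-165327718, plus strand): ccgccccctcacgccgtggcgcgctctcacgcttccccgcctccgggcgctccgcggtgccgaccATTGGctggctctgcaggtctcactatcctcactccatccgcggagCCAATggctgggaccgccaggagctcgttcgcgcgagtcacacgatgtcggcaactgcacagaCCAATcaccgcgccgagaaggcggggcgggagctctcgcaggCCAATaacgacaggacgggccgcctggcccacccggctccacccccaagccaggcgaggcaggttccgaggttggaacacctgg
Many boxes thus stood in promoters of genes that differed in opposite directions, and a match of letters is no binding site.

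Fold changes of the set went with gene length, as those of all genes did. Over the 34 tested genes the Spearman correlation of length with log2 fold change was 0.437, against 0.239 over all 11131 tested genes; the points share the same 6 libraries. Without OE-NC replicate 1 the values were 0.32 for the 33 genes still tested and 0.16 for all tested genes. Genes of the set that fell had a median length of 1821 bp and those that rose 4561 bp. With a length trend removed from each library, ACAT2, MVK, PMVK, FDPS, NSDHL and EBP still fell, by 0.86, 0.83, 0.78, 0.45, 0.69 and 0.72 on the log2 scale, with limma adjusted p from 1.31e-05 to 0.00113, in a fit that called 70.8% of all tested genes, 35.2% higher and 35.5% lower. INSIG1, MSMO1 and HSD17B7, which are short and rose, had larger log2 fold changes after the removal (0.57, 0.56 and 0.82).

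**Figure D3:**
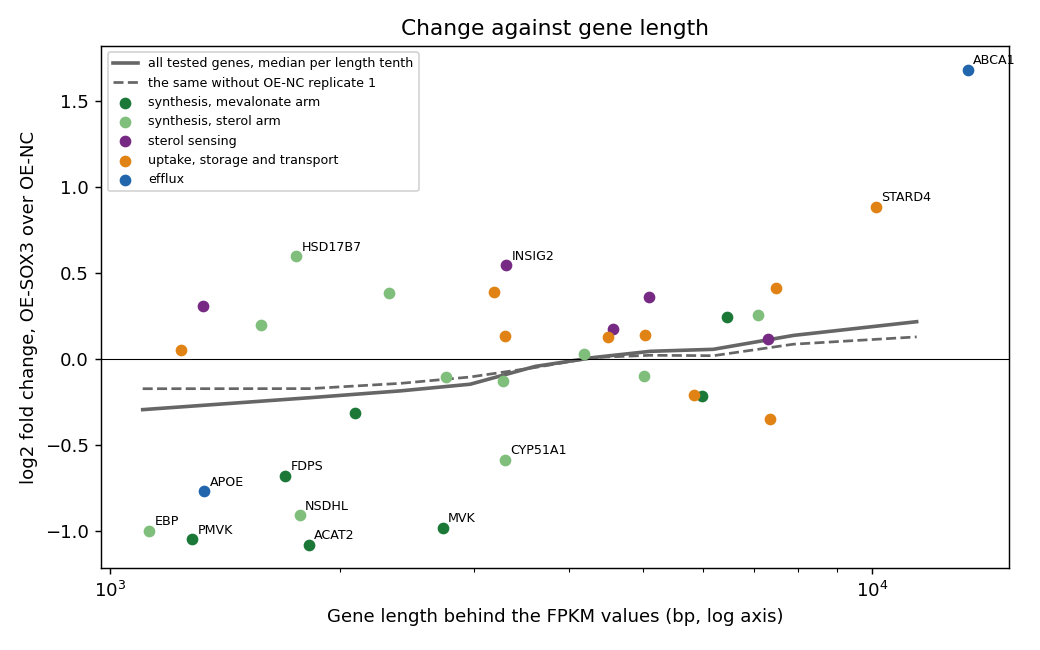
log2 fold change (OE-SOX3 over OE-NC) against the gene length behind the FPKM values (bp, log axis) for the 34 tested genes, with the median of all tested genes in each length decile as a solid line and the same without OE-NC replicate 1 dashed. The line runs from -0.29 in the shortest decile to 0.22 in the longest, and EBP, PMVK, ACAT2, NSDHL and MVK lie well below it.

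Of 5 sterol-sensing genes, 4 rose and none fell, with a median log2 fold change of 0.31. In the same fit 69.1% of all tested genes passed, 32.9% higher and 36.1% lower. The fit blocked on replicate number called 3 of the 5, all higher. INSIG2, the less abundant of the pair of ER retention proteins' genes, had 5.581, 6.132 and 5.636 FPKM in OE-SOX3 libraries, against 4.134, 3.407 and 3.416 FPKM in OE-NC libraries. Its groups did not overlap (log2 fold change 0.55, SE 0.08, limma adjusted p = 0.000798). INSIG1, itself an SREBP target, had 68.75, 70.26 and 66.74 FPKM in OE-SOX3 libraries, against 56.72, 53.41 and 55.17 FPKM in OE-NC libraries, a log2 fold change of 0.31 (SE 0.06, limma adjusted p = 0.00245).

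SREBF1, whose SREBP proteins mainly drive fatty acid genes, averaged 33.2 ± 1.34 FPKM in OE-SOX3 and 25.7 ± 1.53 FPKM in OE-NC (SD, n = 3 each) and rose by 0.36 on the log2 scale (limma adjusted p = 0.00269). SCAP, the SREBP escort, averaged 17.8 ± 0.551 FPKM in OE-SOX3 and 15.7 ± 0.35 FPKM in OE-NC and rose by 0.17 (limma adjusted p = 0.0306). In the blocked fit SCAP missed the threshold (adjusted p = 0.0506). Its call was also lost when any OE-SOX3 library was left out, or OE-NC replicate 2 or 3, with adjusted p from 0.0552 to 0.113. SREBF2, whose product mainly drives cholesterol genes, had 34.91, 37.23 and 38.97 FPKM in OE-SOX3 libraries, against 24.53, 40.71 and 39.52 FPKM in OE-NC libraries. The OE-SOX3 values lay between OE-NC replicate 1 and the other OE-NC libraries, and SREBF2 did not pass (log2 fold change 0.12, limma adjusted p = 0.595), nor without that library (log2 fold change -0.11, adjusted p = 0.0585).

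Of the 30 promoters read, 1 held the exact letters TCACNCCAC of a sterol regulatory element, that of SREBF2, against 1.15% of all RefSeq promoters. Both strands were read, and the letters did not overlap the CCAAT box. The SREBF2 promoter is shown for that match, 133 bases before the start, with the match and an ATTGG box in capitals.
SREBF2 (chr22:41832855-41833154, plus strand): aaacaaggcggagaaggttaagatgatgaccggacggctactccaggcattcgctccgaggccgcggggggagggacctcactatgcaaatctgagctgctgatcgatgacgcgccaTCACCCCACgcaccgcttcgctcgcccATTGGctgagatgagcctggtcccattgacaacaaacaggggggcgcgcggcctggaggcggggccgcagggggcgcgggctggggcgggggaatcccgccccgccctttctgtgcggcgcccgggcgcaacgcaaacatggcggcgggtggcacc
The same letters are not in this window of the other 29 promoters. Variant spellings of the element were not searched, so those promoters may still hold one.

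Of 9 uptake, storage and transport genes, 2 rose, 1 fell and 6 were not past the threshold in the fit of all 6 libraries. In that fit 69.1% of all tested genes passed, 32.9% higher and 36.1% lower. The 9 genes had a median log2 fold change of 0.13. STARD4, a cytosolic carrier that moves sterol between membranes, had 13.49, 13.25 and 12.36 FPKM in OE-SOX3 libraries, against 6.363, 6.601 and 6.848 FPKM in OE-NC libraries. The OE-SOX3 mean was 1.97-fold the OE-NC mean (log2 fold change 0.88, SE 0.06, limma adjusted p = 2.47e-05), with replicates close together in both groups. LIPA, the lysosomal lipase that frees cholesterol from lipoprotein esters, had 57.63, 59.15 and 57.8 FPKM in OE-SOX3 libraries, against 43.48, 43.81 and 45.29 FPKM in OE-NC libraries. It rose by 0.39 on the log2 scale with no overlap (SE 0.06, limma adjusted p = 0.000606).

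SOAT1, which esterifies cholesterol for storage, fell. It had 10.67, 10.76 and 10.48 FPKM in OE-SOX3 libraries, against 14.55, 13.53 and 13.29 FPKM in OE-NC libraries (log2 fold change -0.34, SE 0.06, limma adjusted p = 0.00184). LIPE, the hormone-sensitive lipase that hydrolyses stored esters, averaged 2.06 ± 0.0341 FPKM in OE-SOX3 and 1.79 ± 0.269 FPKM in OE-NC (SD, n = 3 each) and did not pass (limma adjusted p = 0.149).

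Calls on the genes of lysosomal export changed with the libraries and the processing. NPC1, the membrane protein that moves cholesterol out of lysosomes, had 12.43, 14.07 and 13.7 FPKM in OE-SOX3 libraries, against 7.21, 11.22 and 11.58 FPKM in OE-NC libraries. The groups did not overlap, yet OE-NC replicate 1 widened the spread and NPC1 missed the threshold (log2 fold change 0.41, SE 0.16, limma adjusted p = 0.0564). In the blocked fit NPC1 was called higher (adjusted p = 0.0109), as it was without OE-NC replicate 1 (log2 fold change 0.21, adjusted p = 0.00635), 2 (adjusted p = 0.0459) or 3 (adjusted p = 0.0321). It was also called higher with libraries scaled to the same sum (adjusted p = 0.0424) and under quantile normalization (adjusted p = 0.0224). NPC2, its soluble partner and the most abundant gene of the set, had 330.5, 310.7 and 324.5 FPKM in OE-SOX3 libraries, against 354.5, 292.7 and 288.8 FPKM in OE-NC libraries. These overlapped, and NPC2 passed as higher in OE-SOX3 without OE-NC replicate 1 (log2 fold change 0.15 in place of 0.05, limma adjusted p = 0.00314) and, with all libraries, after removal of the length trend (log2 fold change 0.32, adjusted p = 0.000332), scaling to the same sum (0.20, adjusted p = 0.0215) or quantile normalization (0.14, adjusted p = 0.0427).

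SCARB1, the receptor for selective uptake from HDL, averaged 11.8 ± 0.133 FPKM in OE-SOX3 and 10.7 ± 1.06 FPKM in OE-NC (SD, n = 3 each) and did not pass (limma adjusted p = 0.175). STARD3, a late endosomal sterol transfer protein, averaged 11.9 ± 0.378 FPKM in OE-SOX3 and 10.8 ± 0.618 FPKM in OE-NC and did not pass (limma adjusted p = 0.107). OSBPL1A, an oxysterol-binding protein of late endosomes, averaged 8.01 ± 0.51 FPKM in OE-SOX3 and 9.44 ± 0.903 FPKM in OE-NC (limma adjusted p = 0.0573, and 0.0347, lower in OE-SOX3, in the blocked fit). The blocked fit called 5 of the 9 genes, 3 higher and 2 lower, against 72.1% of all tested genes, 34.4% higher and 37.7% lower. Without OE-NC replicate 1 it was 7 of the 9, 5 higher and 2 lower, against 81.5% of all tested genes.

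ABCA1, the efflux pump gene, had the largest log2(FPKM + 1) fold change of the 34 tested genes in either direction. It passed the filter only through OE-SOX3, where it was high, so its adjusted p and rank are no separate support. It had 3.325, 3.413 and 3.302 FPKM in OE-SOX3 libraries, against 0.2993, 0.3722 and 0.4011 FPKM in OE-NC libraries. Each OE-SOX3 library was several times every OE-NC library, and the mean was 9.36-fold the OE-NC mean. On the log2(FPKM + 1) scale, which understates the change of a gene this low in OE-NC, the fold change was 1.68 (SE 0.05, limma adjusted p = 1.54e-06), rank 102 from the top of 11131 tested genes. Whole reads recovered from the FPKM steps numbered 2526 in the OE-SOX3 libraries together and 278 in the OE-NC libraries together, or 9.36 times as many at equal depth (95% exact binomial interval 8.26 to 10.6, for counting error only).

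ABCG1, the pump that loads HDL, was near 0 in both groups and was not tested. It had 0.1036, 0.1367 and 0.04351 FPKM in OE-SOX3 libraries, and in OE-NC libraries it was listed at 0 in replicates 1 and 3 and at 0.004288 FPKM in replicate 2. That is 62 reads in OE-SOX3 against 1 read in OE-NC, or 63.9 times as many at equal depth, with a counting interval of 11.0 to 2560. APOE, which encodes an apolipoprotein that accepts effluxed cholesterol, had 0.311, 0.1965 and 0.1668 FPKM in OE-SOX3 libraries, against 1.779, 0.925 and 0.678 FPKM in OE-NC libraries. The groups did not overlap and APOE fell by 0.76 on the log2 scale (SE 0.17, limma adjusted p = 0.00617), which rests on 17 reads in OE-SOX3 and 87 in OE-NC. APOE passed the filter only through OE-NC, where it was higher, so its adjusted p is no separate support. Without OE-NC replicate 1 its mean was under 1 FPKM in both groups, so it was not tested there.

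The ABCA1 promoter is shown because its gene had that change. It held an E-box (CACGTG, which reads the same on both strands) 147 bases before the start, in capitals, and neither of the other motifs.
ABCA1 (chr9:104928106-104928405, minus strand): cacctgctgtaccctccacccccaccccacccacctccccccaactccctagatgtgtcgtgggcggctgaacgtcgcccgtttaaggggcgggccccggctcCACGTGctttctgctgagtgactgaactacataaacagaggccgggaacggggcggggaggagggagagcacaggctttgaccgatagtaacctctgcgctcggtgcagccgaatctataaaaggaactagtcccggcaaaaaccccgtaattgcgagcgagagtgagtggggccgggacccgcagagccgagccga
An E-box occurred in 5 of the 30 promoters and in 7.43% of all RefSeq promoters, or 9.48% of those of genes in the table. Of the 5 genes, ABCA1, INSIG1, SCAP and SC5D were called higher in OE-SOX3, the last pair not in every alternative, while LSS did not pass and was called lower without OE-NC replicate 1. By call, the E-box was in 4 of 11 promoters of genes that rose, 0 of 10 of genes that fell and 1 of 9 of genes that did not pass. Over all tested genes 32.9% were higher and 36.1% lower. A link of the E-box with direction was not tested, and 5 genes are few.

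Set side by side, synthesis was lower in sum and the uptake, storage and transport genes were not. The 18 synthesis enzymes summed to 668, 650 and 656 FPKM in OE-SOX3 libraries, against 946, 817 and 824 FPKM in OE-NC libraries. The mevalonate arm accounted for most of the gap, at 247, 236 and 241 FPKM in OE-SOX3 libraries, against 418, 362 and 364 FPKM in OE-NC libraries. Neither sum overlapped between groups. FDPS (means of 124 FPKM in OE-SOX3 and 200 FPKM in OE-NC), EBP (47.3 and 97.8) and ACAT2 (28.5 and 61.4) weigh heavily in the synthesis gap. FDPS and ACAT2 may share reads with other genes. EBP was far higher in OE-NC replicate 1 than in the rest of its group. The 9 uptake, storage and transport genes summed to 459, 442 and 453 FPKM in OE-SOX3 libraries, against 458, 401 and 398 FPKM in OE-NC libraries, where OE-NC replicate 1 lay inside the OE-SOX3 range. NPC2 makes up most of that sum. The overlap rests on its 354.5 FPKM in OE-NC replicate 1, against 292.7 and 288.8 FPKM in OE-NC replicates 2 and 3. Median log2 fold changes were -0.17 for synthesis and 0.13 for uptake, storage and transport. The synthesis median was close to 0 with libraries scaled to the same sum (-0.032) and under quantile normalization (-0.0037), where that of uptake, storage and transport was 0.28 and 0.20. The difference between both roles was not tested, since the genes are not replicates.

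**Figure D4:**
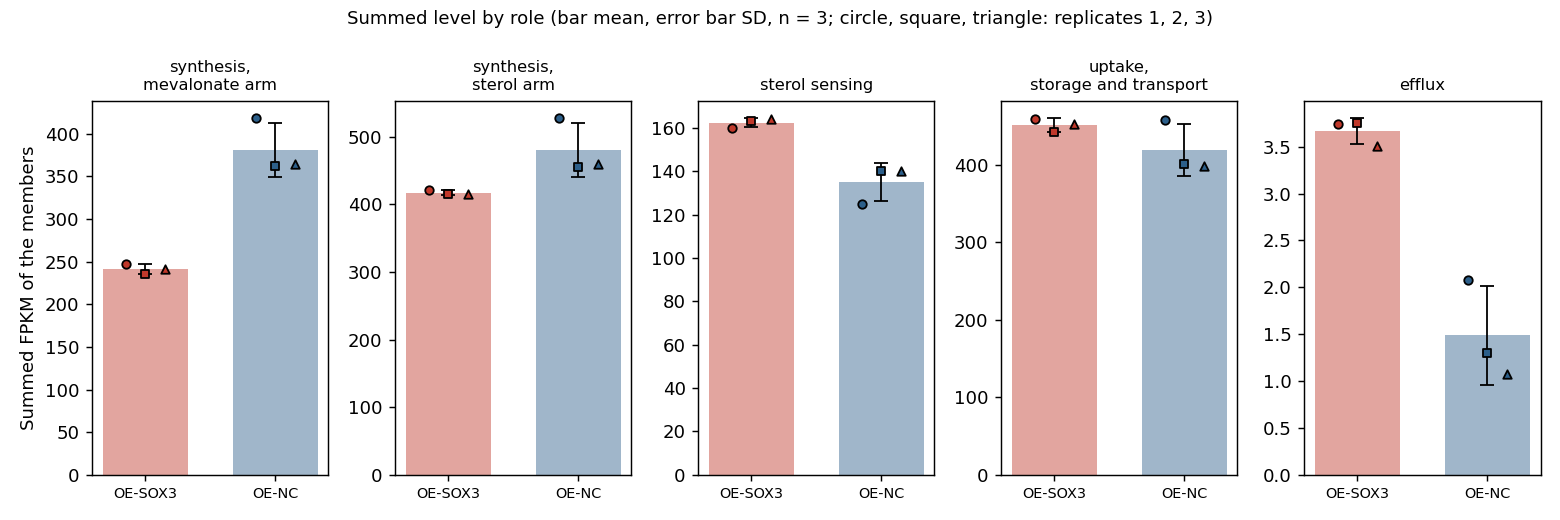
Summed FPKM of the genes of each role, with bars for the mean of 3 libraries, error bars of 1 SD and a point for each library. The mevalonate arm stands at 236 to 247 FPKM in OE-SOX3 and 362 to 418 FPKM in OE-NC, and the uptake, storage and transport sums overlap.

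Other genes of the pathway were counted from lists outside the set. In steroidogenesis 15 of 21 genes in the table were tested (median log2 fold change 0.12). Of these 5 rose, 3 fell and 7 missed the threshold, or 53.3% called, against 69.1% of all tested genes (32.9% higher, 36.1% lower). STAR, which carries cholesterol into mitochondria, rose to 118 ± 3.37 FPKM in OE-SOX3, against 33.6 ± 0.214 FPKM in OE-NC (SD, n = 3 each). The steroid reductase genes AKR1C1 and AKR1C2, near-identical copies that can share reads, rose too, and SRD5A3, a reductase used in dolichol synthesis, fell to 8.5 ± 0.426 FPKM in OE-SOX3, against 14.6 ± 0.168 FPKM in OE-NC. CYP11A1, the side-chain cleavage enzyme that consumes cholesterol in mitochondria, averaged 2.25 ± 0.334 FPKM in OE-SOX3 and 2.15 ± 0.321 FPKM in OE-NC and did not pass (limma adjusted p = 0.714, chosen after its values were seen).

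The mevalonate pathway also feeds isoprenoids, and 7 of 13 tested genes of that branch fell, with 2 higher and 4 not past (median -0.27). PDSS1, which makes the ubiquinone side chain, averaged 0.791 ± 0.023 FPKM in OE-SOX3 and 3.57 ± 0.275 FPKM in OE-NC. It passed the filter through OE-NC alone. ICMT, which methylates prenylated proteins, averaged 25.0 ± 0.945 FPKM in OE-SOX3 and 69.4 ± 9.23 FPKM in OE-NC, and COQ2, a ubiquinone enzyme, 10.7 ± 0.414 FPKM in OE-SOX3 and 24.3 ± 5.33 FPKM in OE-NC. FNTA, a prenyltransferase subunit, rose to 33.6 ± 0.775 FPKM in OE-SOX3, against 23.2 ± 1.54 FPKM in OE-NC (SD, n = 3 for each of these). The share called, 69.2%, was near that of all tested genes.

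Among 14 tested SREBP targets listed for fatty acids, 7 fell, 2 rose and 5 did not pass (median -0.34). The share called was 64.3%, against 69.1% of all tested genes (32.9% higher, 36.1% lower). TMEM97, an ER protein that binds sterol and does not make fatty acids, averaged 8.72 ± 0.133 FPKM in OE-SOX3 and 25.7 ± 0.702 FPKM in OE-NC. The desaturase gene SCD averaged 166 ± 4.51 FPKM in OE-SOX3 and 314 ± 30.6 FPKM in OE-NC, and the elongase gene ELOVL6 averaged 6.51 ± 0.29 FPKM in OE-SOX3 and 9.47 ± 0.763 FPKM in OE-NC. ACSS2, which activates acetate, rose to 30.3 ± 0.765 FPKM in OE-SOX3, against 20 ± 1.03 FPKM in OE-NC (SD, n = 3 for each). Of 12 genes of SREBP processing and LXR control, 2 rose, 4 fell and 6 did not pass. MYLIP, an LXR target that marks lipoprotein receptors for degradation, averaged 2.93 ± 0.305 FPKM in OE-SOX3 and 1.58 ± 0.334 FPKM in OE-NC. ERLIN1, which acts in sterol-regulated degradation at the ER, and the ubiquitin ligase gene TRIM21 fell. Of the LXR genes themselves, NR1H2 rose by a small amount. It averaged 34.1 ± 0.888 FPKM in OE-SOX3 and 29.4 ± 0.548 FPKM in OE-NC, with no overlap (log2 fold change 0.20, limma adjusted p = 0.0141). NR1H3 averaged 3.13 ± 0.329 FPKM in OE-SOX3 and 3.27 ± 0.48 FPKM in OE-NC and did not pass (limma adjusted p = 0.707). NR1H2 and NR1H3 were chosen after their values were seen.

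Of 22 tested genes for other sterol transfer proteins and lipoprotein receptors, 14 rose, 4 fell and 4 missed the threshold (median log2 fold change 0.31). That is 81.8% called, against 69.1% of all tested genes, 32.9% higher and 36.1% lower. GRAMD1C and PLTP, among the 14, passed the filter only through OE-SOX3, where they were high. ABCA7, a transporter related to ABCA1, averaged 5.73 ± 0.118 FPKM in OE-SOX3 and 1.84 ± 0.157 FPKM in OE-NC. GRAMD1A, which brings plasma membrane cholesterol to the ER, averaged 17.8 ± 0.821 FPKM in OE-SOX3 and 7.29 ± 0.792 FPKM in OE-NC, and OSBP, which exchanges sterol at the Golgi, 29.3 ± 0.894 FPKM in OE-SOX3 and 18.2 ± 0.351 FPKM in OE-NC. The scavenger receptor gene CD36 fell to 1.51 ± 0.114 FPKM in OE-SOX3, against 4.22 ± 0.121 FPKM in OE-NC (SD, n = 3 for each). Among 6 oxysterol and bile acid genes, 4 were too low to test, HSD3B7 did not pass, and HSD11B1, best known for regenerating cortisol, rose to 12.6 ± 1.0 FPKM in OE-SOX3, against 4.99 ± 0.515 FPKM in OE-NC.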

How the data were processed

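The authors deposited 1 table of 16626 genes with a value per library. Its header names no unit. They were read as FPKM made by the authors, since within a library each deposited value equals a whole number of reads scaled by gene length and total. Whole reads and a whole gene length fitted 16278 of the 16278 genes above 0 (100%, within 0.02 reads). HISAT2, HTSeq, RSEM and hg38 are named without roles, per the submitters' processing notes. Annotation, read layout and strandedness: not given in the sources used here.

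The 11131 genes averaging 1 FPKM or more in either group were tested as log2(FPKM + 1) in limma-trend 3.58.1 (R 4.3.3) over all 6 libraries, without covariates, with Benjamini-Hochberg adjustment over all of them and a threshold of 0.05. The fit was tested on simulated reads that held no outlying library and no trend with gene length, so that test does not cover them. Other steps used Python 3.11.15, pandas 2.3.3 and SciPy 1.17.1. Positions and exon overlaps are from GENCODE 29 (GRCh38), promoters from RefSeq (GRCh38.p14).

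Libraries with the same replicate number deviated together (correlations of deviations 0.486, 0.243 and 0.25 for numbers 1, 2 and 3), so a fit with the number as a block was made, although libraries 2 and 3 also correlated across numbers (0.282 and 0.227). The closest libraries, replicates 2 and 3, still differed by more than counting error (chi-square over its degrees of freedom 2.09 in OE-SOX3 and 1.76 in OE-NC, where sampling alone gives about 1), so they were not merged as 1 library deposited in duplicate. This does not show that they came from separate cultures. The genes, lists and tests were chosen with earlier results of these data known. Named from the lists were up to 4 called genes with the smallest adjusted p. Alternatives were 12 planned and 2 added after seeing the data. Some genes of the lists are not reported here.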

Additional observations from a re-analysis of the deposited data

How the results depend on the processing

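Of the 22 genes past the threshold, 17 kept their direction and call in every alternative that tested them, out of 14, and none reversed. Those that lost the call somewhere were HMGCS1, MVD, IDI1, SC5D and SCAP. Genes past the threshold numbered 6557 to 9076 with 1 library left out, against 7686 with all. Among uptake, storage and transport genes 7 passed with libraries scaled to the same sum or under quantile normalization, 5 with the replicate block and 6 with the length trend removed, against 3, and 3 to 7 with 1 library left out. Efflux genes past the threshold were 1 or 2 with 1 library left out, and none reached a mean of 5 FPKM, so that filter gave no value. Median log2 fold changes for synthesis were -0.032 scaled to the same sum, -0.0037 under quantile normalization and -0.26 to -0.18 with 1 library left out. For sterol sensing they were 0.46 scaled and 0.52 under quantile normalization. For uptake, storage and transport they were 0.28 scaled, 0.20 under quantile normalization, 0.22 with the length trend removed and 0.14 to 0.16 with 1 library left out. For efflux, a median of 2 genes, they were 0.64 scaled, 0.24 under quantile normalization, 0.13 with no filter and 0.39 to 1.65 with 1 library left out. The reversals were all in genes that did not pass in the fit of all libraries. Scaled and under quantile normalization SQLE was at 0.018 and 0.12, LSS at 0.046 and 0.12 and DHCR7 at 0.041 and 0.12, and LIPE was at -0.0096 under quantile normalization. With the length trend removed DHCR7 was at 0.041 and SREBF2 at -6.3e-07. With 1 library left out FDFT1 ranged from -0.041 to 0.14, SQLE from -0.22 to 0.054, DHCR7 from -0.42 to 0.061, SREBF2 from -0.11 to 0.24 and NPC2 from -0.0014 to 0.15. The cause was not tested. The replicate block changed no call of the 35 genes other than SCAP, TM7SF2, NPC1 and OSBPL1A. Limma-voom on recovered reads gave ABCA1 a log2 fold change of 3.23 and APOE one of -2.15, with no pseudocount of 1 to shrink them. Depth limits APOE and ABCG1, which rest on few reads.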
